A study of Mus musculus with 4 samples.

Results

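The proteasome genes were examined in ASZ001 cells, a mouse basal cell carcinoma line, as the rows of the deposited count table whose symbol begins with Psma to Psmg and a digit, leaving out the immunoproteasome genes Psmb8, Psmb9 and Psmb10. This gave 47 of 24907 genes. By role they were 16 genes of the core particle, 22 of the regulatory particle and the other regulators, 7 assembly factors and 2 further rows that share the naming. The 2 further rows are Psmc3ip, which encodes a meiotic recombination protein and no proteasome subunit, and Psme2b, a near-identical copy of Psme2. RNA-seq was done on 2 libraries of cells transfected with a doxycycline-inducible vector carrying c-FOS and on 2 libraries of cells with the empty inducible vector, called control. All 4 libraries came from doxycycline-treated cells, and no c-FOS vector cells without doxycycline are among the samples used here, so an effect of induced c-FOS and any other difference between the cells that carry each vector cannot be told apart. The sources used here do not give the dose and length of the treatment, or whether the transfected cells were a clone or a pool. The labels give replicate numbers but do not say that replicates were separate cultures, so each p-value here rests on the spread between libraries alone, which may be technical.

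The proteasome is the protease complex that degrades ubiquitin-tagged proteins in the cytosol and nucleus. Its barrel-shaped core is built of alpha subunits, which form the gated outer rings, and beta subunits, which form the inner rings and carry the protease sites. A regulatory particle with a ring of ATPases and a set of non-ATPase subunits binds the ends of the core, recognises and unfolds substrates, while alternative activators can take its place and dedicated chaperones assemble the parts. Genes of the subunits are commonly induced together by the transcription factor NFE2L1 when proteasome activity is short, through promoter elements of the antioxidant response type. c-FOS is a subunit of the AP-1 transcription factor.

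The libraries held 29200592 and 32465409 counts with c-FOS and 28405433 and 29822437.5 counts in the control. Levels are given as CPM, the usual unit of counts relative to library size, with library sizes scaled by the trimmed mean of M-values (TMM). The 2 libraries of a group stand in replicate order. Fos itself was at 296.8 and 313.4 CPM with c-FOS, against 0.404 and 0.351 CPM in the control. Its log2 fold change was 9.65 ± 0.09 (SE, n = 2 libraries per group; adjusted p = 4.98e-17), so the libraries matched their labels. All p-values of the comparison are from the quasi-likelihood test of edgeR over the 12791 genes tested, with Benjamini-Hochberg adjustment, and a gene passed where the adjusted p was below 0.05. The basal keratinocyte markers Krt5, Krt14 and Trp63 were all expressed, and all 3 were lower with c-FOS. Krt5, a basal keratin, was at 3732 and 3791 CPM with c-FOS and at 11101 and 11665 CPM in the control. Summed over 6 leukocyte markers the level was 32.0 and 33.6 CPM with c-FOS and 12.2 and 10.6 CPM in the control, of which 2 were tested and higher (Csf1r and Cd68), while Cd3e was at 0 in every library and Ptprc was at 0.0899 CPM or below. Summed over 7 fibroblast markers it was 6.31 and 7.28 CPM with c-FOS and 1.16 and 1.42 CPM in the control, of which 2 of 3 tested were higher and Thy1 was at 0. Of 4 endothelial markers 2 were tested and higher with Kdr at 0, and of 4 melanocyte markers 2 were tested and neither passed with Tyr at 0. The part of these marker differences in the proteasome results was not tested. In bulk RNA, fewer cells expressing a gene and less RNA per cell cannot be told apart.

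Most proteasome genes differed little between c-FOS and control with TMM scaling, in a comparison in which most of the other tested genes passed. Of the 47 genes 46 were tested, all except Psmb11, and 6 were higher with c-FOS, 10 were lower and 30 did not pass. The 10 lower genes include the further rows Psmc3ip and Psme2b. With TMM scaling, the 16 genes that passed were 34.8% of those tested, where 67.1% of all tested genes passed. Higher genes were 13.0% of the proteasome genes against 33.8% of all tested genes, and lower genes 21.7% against 33.3%. With the same scaling the sizes were small as well, with 37 of 46 log2 fold changes (80.4%) within 0.25 of 0. The share among all tested genes was 41.9%. The proteasome log2 fold changes ran between their quartiles from -0.14 to 0.05 with a median of -0.05, and those of all tested genes from -0.33 to 0.31 with a median of -0.01. At least 1.5-fold and past the test were 3 of the 46 (Psme4, Psmd10 and Psmc3ip, which matched by symbol only), where 27.6% of all tested genes were. The lower share of proteasome genes that passed depended on the scaling and was not seen with library totals. The share within 0.25 of 0 depends on the scaling too. With library totals the median was -0.19 for the proteasome genes and -0.14 for all tested genes. With library totals 35 of 46 passed, where 71.1% of all tested genes did. With upper-quartile factors 27 of 46 passed, where 68.9% of all tested genes did. Without control replicate 2, 10 proteasome genes passed as higher and 12 as lower, 22 of 46, where 68.1% of all tested genes passed.

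The share was close to the same among well-expressed genes. Among the 42 proteasome genes with a mean of at least 10 CPM, 15 (35.7%) passed, where 71.0% of all genes at that level did. The median standard error of the log2 fold change was 0.045 over the proteasome genes and 0.067 over all tested genes. The libraries of the groups did not overlap for 34 of 46 proteasome genes, where the share over all tested genes was 83.6%. Non-overlap stated for single genes below is therefore shared with most tested genes.

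**Figure D1:**
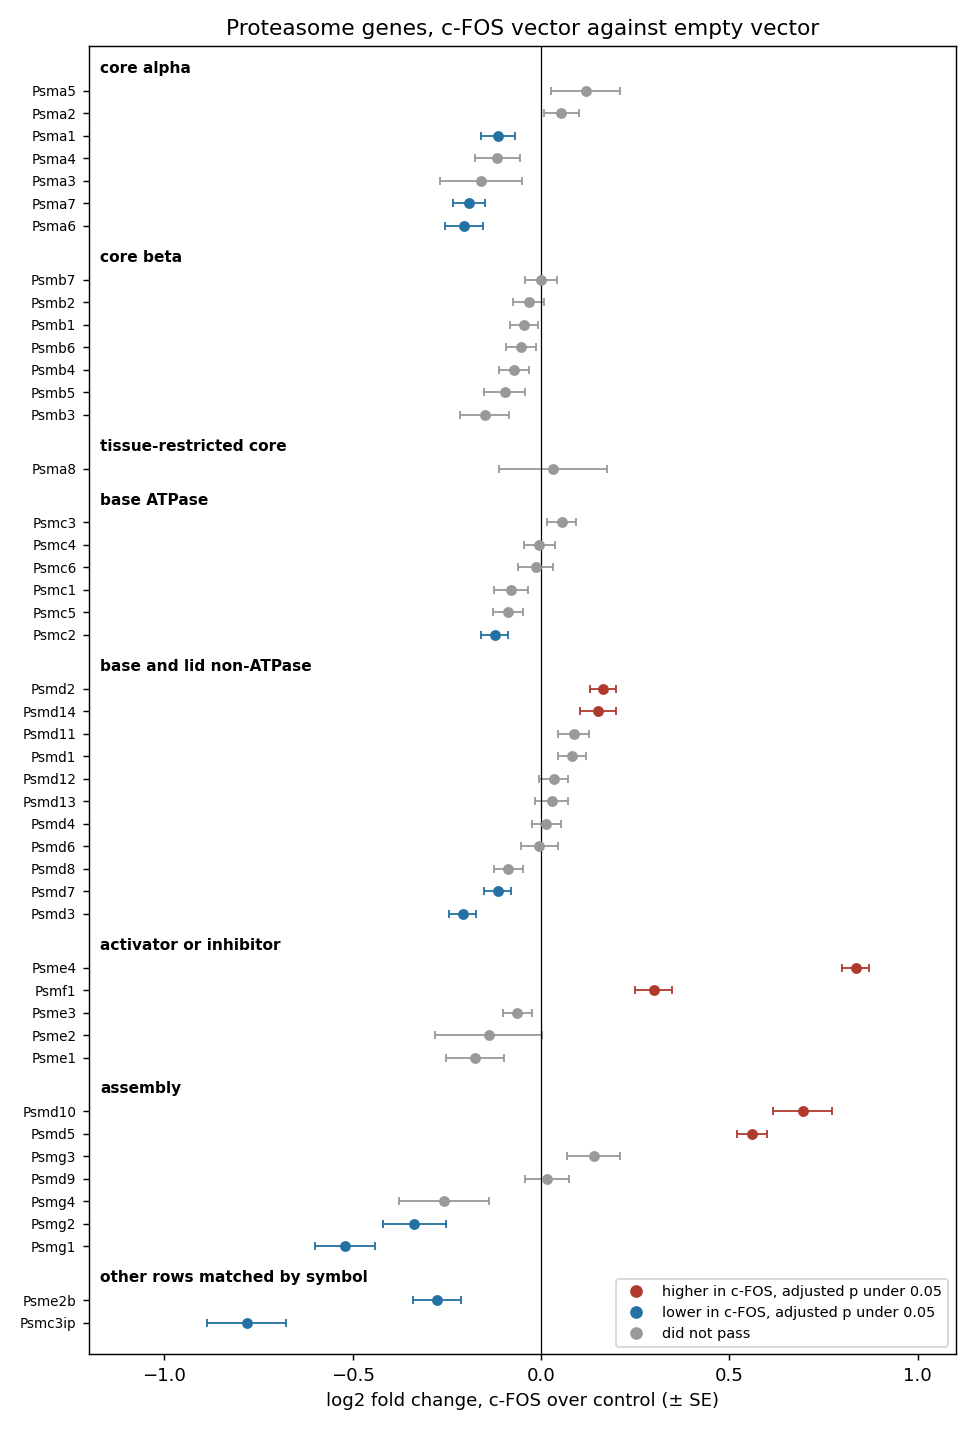
Log2 fold change of each tested proteasome gene, c-FOS over control, with its standard error (horizontal axis), grouped by role (vertical axis); red points passed as higher, blue as lower, grey did not pass. The 31 core, base and lid subunits lie between -0.21 and 0.16, and values beyond 0.5 in either direction are those of Psme4, Psmd10, Psmd5, Psmg1 and Psmc3ip.

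Among the proteasome proteins proper, the widest differences were those of activator and assembly genes. Adrm1 and Sem1, subunits outside the naming rule, were counted among the further proteasome-bound proteins below. The 31 other constitutive subunits of the core, the base and the lid gave 2 higher and 6 lower genes, and 23 did not pass. They gave none higher and 24 lower with library totals, 1 higher and 15 lower with upper-quartile factors, and 1 to 5 higher and 3 to 9 lower when 1 library was left out. Their log2 fold changes ran from -0.21 to 0.16 with a median of -0.05 and an SD of 0.10 across genes. The 12 activators, inhibitor and assembly factors gave 4 higher and 2 lower genes, with log2 fold changes from -0.52 to 0.83. Of all tested genes 33.8% were higher and 33.3% lower. Between quartiles the assembly log2 fold changes spanned 0.65 and those of all tested genes 0.63. The assembly genes thus stood out from the structural subunits and not from all tested genes. Relative to the median structural subunit, the activator Psme4 was 0.88 higher on the log2 scale, the assembly factors Psmd10 and Psmd5 were 0.74 and 0.61 higher, and the regulator Psmf1 was 0.35 higher, while the assembly factors Psmg2 and Psmg1 stood at -0.29 and -0.47. Without control replicate 2, Psmg2 stood at -0.19. These 6 genes have no copy of at least 95% identity over 500 bases among the annotated mouse transcripts and no exon overlap with another gene. Such a copy exists for 10 of the 47 genes, namely Psma3, Psma4, Psma5, Psmb3, Psmb5, Psmc1, Psmd2, Psmd11, Psme2 and Psme2b, and their values are uncertain where the counting split reads between copies.

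The direction of small changes depends on how the libraries are scaled, since the TMM factors were 0.953 and 0.954 with c-FOS and 1.05 and 1.05 in the control. With library totals alone, the median of all tested genes moved to -0.14 and the proteasome genes gave 4 higher and 31 lower, where 25.2% of all tested genes were higher and 46.0% lower. With upper-quartile factors the proteasome genes gave 5 higher and 22 lower, where the shares of all tested genes were 29.6% higher and 39.3% lower. The sign of 10 proteasome genes turned with library totals, and 3 of them then passed as lower (Psmd4, Psmd13 and Psmd12). A change of scaling shifts all log2 fold changes by about the same amount. By this construction the median proteasome gene lay 0.04 below the median of all tested genes under each of the 4 scalings. Summed over all 47 genes, the share of deposited counts was 0.457% and 0.463% with c-FOS and 0.491% and 0.501% in the control, lower with c-FOS. On the TMM scale the same sums were 4800.1 and 4848.9 CPM with c-FOS and 4694.3 and 4767.8 CPM in the control, slightly higher with c-FOS. The sum of the 31 structural subunits was 3867 and 3908 CPM with c-FOS and 3952 and 4007 CPM in the control, a ratio of 0.977.

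**Figure D2:**
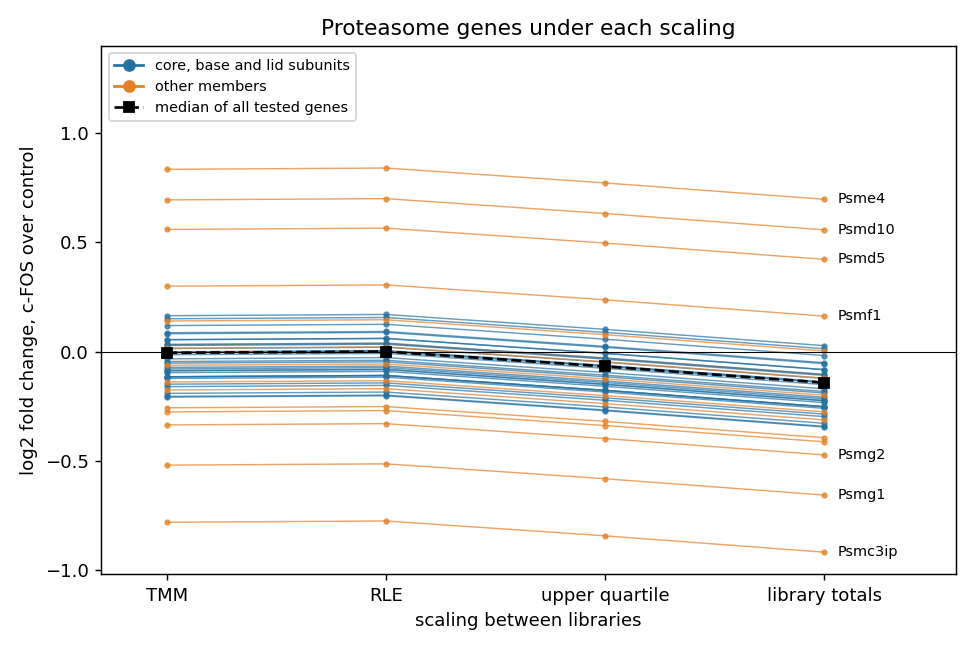
Log2 fold change of each tested proteasome gene, c-FOS over control (vertical axis), under 4 scalings between libraries (horizontal axis); blue lines are core, base and lid subunits, orange lines the other proteasome genes, and black squares the median of all tested genes. By construction of the scaling all lines shift together, by about the shift of the all-gene median to -0.14 with library totals. The named genes therefore keep their distance from the structural subunits.

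Promoter windows from 250 bases before to 50 after the start were found for 39 of the 47 genes in the RefSeq table for GRCm38.p6. The windows were searched on both strands for the AP-1 site TGACTCA, the core of the antioxidant response element TGACNNNGC, which NFE2L1 and NFE2L2 bind, and the CCAAT box of NF-Y. An AP-1 site followed by GC would also count as an antioxidant core, and no match in these genes was of that kind. The AP-1 site stood in 1 of 39 genes (2.56%), against 5.95% of all 27025 genes in the table, and the gene was the base chaperone Psmd9, which did not pass the test. The antioxidant core stood in 6 genes (15.4%), against 14% of all genes. The CCAAT box stood in 14 genes (35.9%), against 41.1% of all genes. Over the 9871 genes that were both in the table and tested, the shares were 4.86% for the AP-1 site, 17% for the antioxidant core and 43.4% for the CCAAT box. These shares are matches of letters and say nothing of binding in these cells. No entry was found for Psmb1, Psmb2, Psmb7, Psma8, Psmc3, Psmd3, Psmd7 and Psmg2.

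The AP-1 match and the 6 antioxidant cores are shown because c-FOS and the NFE2L1 route act on such letters, each 5′ to 3′ on the strand of the gene with up to 10 bases on each side and the motif, or its reverse complement, in capitals. Of the 6 genes with an antioxidant core, Psme4 passed the test and the other 5 did not.
Psmd9 AP-1 match, chr5:123228054-123228080: aaagtggaaaTGAGTCAggataaagtg
Psme4, chr11:30771758-30771786: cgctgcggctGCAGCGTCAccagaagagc
Psmb5, chr14:54618024-54618052: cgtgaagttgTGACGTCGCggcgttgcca
Psmb6, chr11:70525338-70525366: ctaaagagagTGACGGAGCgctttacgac
Psmc6, chr14:45329587-45329615: ccagccagtaGCTAAGTCAggcattgctc
Psmd12, chr11:107479278-107479299: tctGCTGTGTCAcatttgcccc
Psmd9 antioxidant core, chr5:123228149-123228177: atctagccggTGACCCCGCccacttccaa

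The full windows of Psme4 and Psmd10 are shown because these genes had the highest log2 fold changes. The Psme4 window is on the plus strand at chr11:30771525-30771824, and its capitals mark the reverse complement of the antioxidant core. That match begins 7 bases before the start and extends across it. The Psmd10 window is on the minus strand at chrX:140956662-140956961, and its capitals mark a CCAAT box and 2 reverse complements of it. Neither window holds the AP-1 site.
Psme4: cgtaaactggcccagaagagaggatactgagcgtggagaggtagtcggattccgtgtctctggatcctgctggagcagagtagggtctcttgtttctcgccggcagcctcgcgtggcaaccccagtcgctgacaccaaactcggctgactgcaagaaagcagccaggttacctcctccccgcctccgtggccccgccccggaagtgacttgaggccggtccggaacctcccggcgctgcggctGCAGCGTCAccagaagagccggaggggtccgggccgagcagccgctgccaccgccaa
Psmd10: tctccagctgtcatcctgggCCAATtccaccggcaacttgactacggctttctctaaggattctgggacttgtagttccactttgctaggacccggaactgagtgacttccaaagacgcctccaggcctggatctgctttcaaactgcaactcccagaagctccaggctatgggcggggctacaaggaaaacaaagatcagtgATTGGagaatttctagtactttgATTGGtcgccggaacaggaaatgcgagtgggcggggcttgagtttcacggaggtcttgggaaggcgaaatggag

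In the alpha rings, 3 of 7 genes were lower with c-FOS by edgeR with TMM scaling, where 33.3% of all tested genes were. At an unadjusted edgeR p under 0.05, 3 alpha genes were lower as well. By DESeq2 2 were lower, as Psma1 did not pass there. None was higher in any of these. With library totals 5 were lower and with upper-quartile factors 4, where the shares of all tested genes were 46.0% and 39.3%. Psma6, an alpha-ring subunit, was at 74.6 and 75.3 CPM with c-FOS and at 82.0 and 90.8 CPM in the control, a log2 fold change of -0.21 ± 0.05 (adjusted p = 0.00258). Psma7, also of the alpha ring, was at 147.1 and 136.8 CPM with c-FOS and at 160.5 and 163.6 CPM in the control (-0.19 ± 0.04, adjusted p = 0.0013). In both genes each c-FOS library lay below each control library, and without control replicate 2 Psma6 was at -0.13 (adjusted p = 0.00763). The third gene that passed was Psma1, at -0.12 ± 0.05 (adjusted p = 0.0374). With c-FOS replicate 2 left out, Psma7 was at -0.14 (adjusted p = 0.081) and did not pass. Psma1 lost its call without c-FOS replicate 1 (-0.09, adjusted p = 0.286), c-FOS replicate 2 (-0.13, adjusted p = 0.112) or control replicate 2 (-0.06, adjusted p = 0.211). At the other end Psma5 was at 14.3 and 15.6 CPM with c-FOS and at 12.9 and 14.6 CPM in the control (0.12 ± 0.09, adjusted p = 0.265), and Psma2 at 115.5 and 123.6 CPM with c-FOS and at 111.2 and 119.1 CPM in the control (0.05 ± 0.05, adjusted p = 0.326). The groups overlapped in both. Without control replicate 2 both passed as higher, Psma5 at 0.21 (adjusted p = 0.0428) and Psma2 at 0.11 (adjusted p = 0.0138). Psma3 and Psma4 had log2 fold changes of -0.16 and -0.12 and did not pass with all 4 libraries. Psma3 passed as lower without c-FOS replicate 1 (-0.34, adjusted p = 0.023) and was at 0.02 without c-FOS replicate 2, and Psma4 passed as lower without control replicate 1 (-0.17, adjusted p = 0.013). The summed alpha level was 500.9 and 500.3 CPM with c-FOS and 522.6 and 556.0 CPM in the control.

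No beta subunit passed the test of edgeR with TMM scaling or that of DESeq2, and at an unadjusted edgeR p under 0.05 there was 1, Psmb3. With library totals all 7 passed as lower, and with upper-quartile factors 5 did, where the shares of all tested genes were 46.0% and 39.3%. The lowest log2 fold change was that of Psmb3, a non-catalytic beta subunit, at 32.1 and 35.7 CPM with c-FOS and at 36.9 and 38.3 CPM in the control (-0.15 ± 0.06, adjusted p = 0.0563). Psmb5, which carries the chymotrypsin-like protease site, was at 42.1 and 43.3 CPM with c-FOS and at 47.0 and 44.4 CPM in the control (-0.10 ± 0.05, adjusted p = 0.129). The c-FOS libraries lay below the control libraries in both genes. Psmb3 passed as lower without c-FOS replicate 2 (-0.23, adjusted p = 0.0415) or control replicate 1 (-0.17, adjusted p = 0.0103), and stood at -0.07 (adjusted p = 0.5) without c-FOS replicate 1. Psmb3 also passed without a filter on low counts, with a minimum count of 50 and with a block for replicate number (-0.15, adjusted p = 0.046). Psmb5 passed as lower without control replicate 2 (-0.14, adjusted p = 0.0336). Psmb7, which carries the trypsin-like site, was at 111.0 and 113.5 CPM with c-FOS and at 109.3 and 115.4 CPM in the control (-0.00097 ± 0.04, adjusted p = 0.986), and its groups overlapped. Psmb2, a non-catalytic beta subunit, was at 85.7 and 84.2 CPM with c-FOS and at 87.0 and 86.9 CPM in the control (-0.03 ± 0.04, adjusted p = 0.49). Psmb6, which carries the caspase-like site, and the non-catalytic Psmb1 and Psmb4 had log2 fold changes of -0.05, -0.05 and -0.07. The sign of Psmb7 turned with the median-ratio (RLE) size factors, with DESeq2, and without c-FOS replicate 1 or control replicate 2. On the TMM scale the summed beta level was 691.6 and 703.0 CPM with c-FOS and 720.3 and 725.3 CPM in the control. The exons of Psmb7 share 405 bases with Nek6 on the opposite strand, a gene higher with c-FOS (0.64 ± 0.07, adjusted p = 2.98e-06), so without a stated strand setting reads there cannot be assigned.

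The tissue-restricted core subunits were low or absent. Psma8, the alpha subunit of the testis proteasome, was at 4.46 and 4.55 CPM with c-FOS and at 4.86 and 3.96 CPM in the control (0.03 ± 0.14, adjusted p = 0.86), with overlapping groups. Psmb11, the beta subunit of the thymus cortex, had 1 count in c-FOS replicate 2 and 0 in the other libraries and was not tested. The immunoproteasome catalytic subunits, which are not among the 47 genes, were also low. Psmb8 was at 0 in every library. Psmb9 had 1 and 0 counts with c-FOS and 17.5 and 12.5 counts in the control, a c-FOS over control ratio of 0.0335 with an exact 95% counting interval from 0.000822 to 0.201 after rounding, and it passed the test as lower (adjusted p = 0.000179). Psmb10 was at 9.04 and 9.38 CPM with c-FOS and at 11.9 and 10.4 CPM in the control, lower by the test (-0.27, adjusted p = 0.0282). It did not pass without c-FOS replicate 1 (-0.24), c-FOS replicate 2 (-0.29) or control replicate 1 (-0.17).

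Of the 6 ATPases of the base, which unfold substrates and feed them into the core, 1 was lower and 5 did not pass with TMM scaling. Of all tested genes 33.3% were lower with that scaling. With library totals 5 ATPases were lower and with upper-quartile factors 3, where the shares of all tested genes were 46.0% and 39.3%. Psmc2 was at 280.7 and 277.4 CPM with c-FOS and at 299.4 and 308.4 CPM in the control (-0.12 ± 0.04, adjusted p = 0.0085). Psmc5 was at 128.3 and 129.8 CPM with c-FOS and at 134.3 and 140.1 CPM in the control (-0.09 ± 0.04, adjusted p = 0.0653). The groups did not overlap in either gene. Psmc2 lost its call without c-FOS replicate 1 (-0.13, adjusted p = 0.0981) or c-FOS replicate 2 (-0.11, adjusted p = 0.145), and Psmc5 passed without control replicate 1 (-0.12, adjusted p = 0.00442). Psmc3 was at 175.8 and 180.5 CPM with c-FOS and at 173.5 and 169.6 CPM in the control (0.05 ± 0.04, adjusted p = 0.219), and it shares 97 exon bases on the opposite strand with Slc39a13, a zinc transporter gene higher with c-FOS (1.45 ± 0.04). Psmc4 was at 115.1 and 121.2 CPM with c-FOS and at 118.5 and 118.7 CPM in the control (-0.0050 ± 0.04, adjusted p = 0.923), with overlapping groups. Psmc1 and Psmc6 had log2 fold changes of -0.08 and -0.01. The ATPase sum was 855.1 and 864.5 CPM with c-FOS and 881.3 and 901.4 CPM in the control.

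The 11 non-ATPase subunits of base and lid moved in both directions, with 2 higher, 2 lower and 7 not passing. Of all tested genes 33.8% were higher and 33.3% lower. With library totals none of the 11 was higher and 7 were lower, and with upper-quartile factors 1 was higher and 3 were lower. The lower shares of all tested genes were 46.0% and 39.3% there. Psmd2, a base scaffold that docks ubiquitin receptors, was at 352.7 and 352.0 CPM with c-FOS and at 318.1 and 310.8 CPM in the control (0.16 ± 0.04, adjusted p = 0.00102). Psmd14, the lid enzyme that removes ubiquitin chains from substrates, was at 69.2 and 71.1 CPM with c-FOS and at 61.0 and 65.5 CPM in the control (0.15 ± 0.05, adjusted p = 0.0136). Neither passed with library totals, where their log2 fold changes were 0.03 and 0.01. Psmd3, a lid subunit, was at 250.8 and 253.8 CPM with c-FOS and at 293.8 and 289.3 CPM in the control (-0.21 ± 0.04, adjusted p = 0.00015). Psmd7, the inactive partner of Psmd14 in the lid, was at 201.2 and 203.4 CPM with c-FOS and at 220.4 and 217.9 CPM in the control (-0.12 ± 0.04, adjusted p = 0.0122). In all 4 genes the groups did not overlap, where 83.6% of all tested genes did not. Psmd14 and Psmd7, which act as a pair, had opposite signs. Psmd7 lost its call with c-FOS replicate 1 left out (adjusted p = 0.18) and with c-FOS replicate 2 left out (adjusted p = 0.115), and Psmd14 lost its call with c-FOS replicate 2 left out (adjusted p = 0.138). The other 7 lay between -0.09 for Psmd8 and 0.09 for Psmd11, with the ubiquitin receptor Psmd4 at 0.01. The summed level was 1819.9 and 1841 CPM with c-FOS and 1828 and 1824 CPM in the control.

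The activator Psme4 had the largest log2 fold change of the 46 tested proteasome genes. It encodes a large cap that opens the core without ATP and is known in mouse testis for the breakdown of acetylated histones. Psme4 was at 352.0 and 361.0 CPM with c-FOS and at 198.7 and 201.1 CPM in the control. The log2 fold change was 0.83 ± 0.04, a 1.78-fold higher level (adjusted p = 1.12e-10). Psmf1, which encodes a proteasome-binding protein first described as an inhibitor of the core, was at 61.9 and 59.7 CPM with c-FOS and at 48.3 and 50.4 CPM in the control (0.30 ± 0.05, adjusted p = 9.74e-05). In both genes the c-FOS libraries lay above the control libraries, and both passed under all 12 alternative settings.

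The other activators did not pass with TMM scaling and all 4 libraries. Psme1 passed as lower with library totals (-0.31, adjusted p = 0.00246), with upper-quartile factors (-0.24, adjusted p = 0.0143), with a minimum count of 50 and without control replicate 2 (-0.23, adjusted p = 0.0138). Psme3 passed as lower with library totals (-0.20, adjusted p = 0.000418), with upper-quartile factors (-0.13, adjusted p = 0.0111) and without control replicate 1 (-0.10, adjusted p = 0.00908). Psme1 and Psme2 encode the interferon-inducible cap that favours the making of antigenic peptides. Psme1 was at 17.8 and 17.7 CPM with c-FOS and at 20.8 and 19.3 CPM in the control (-0.18 ± 0.08, adjusted p = 0.0587). Psme2 was at 3.54 and 3.55 CPM with c-FOS and at 4.02 and 3.80 CPM in the control (-0.14 ± 0.14, adjusted p = 0.403). Its near-identical copy Psme2b took more counts, at 26.9 and 27.6 CPM with c-FOS and at 33.9 and 32.1 CPM in the control, and was lower (-0.28 ± 0.06, adjusted p = 0.00177). Transcripts of Psme2 and Psme2b are 99.4% identical over 794 bases, so how the counting split their reads is uncertain. Psme3, which encodes the nuclear activator cap, was at 210.1 and 205.9 CPM with c-FOS and at 212.0 and 222.4 CPM in the control (-0.06 ± 0.04, adjusted p = 0.169). The sum of the 5 regulators was 645.3 and 647.8 CPM with c-FOS and 483.8 and 497.0 CPM in the control, a ratio of 1.32, in which Psme4 is the largest term.

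**Figure D3:**
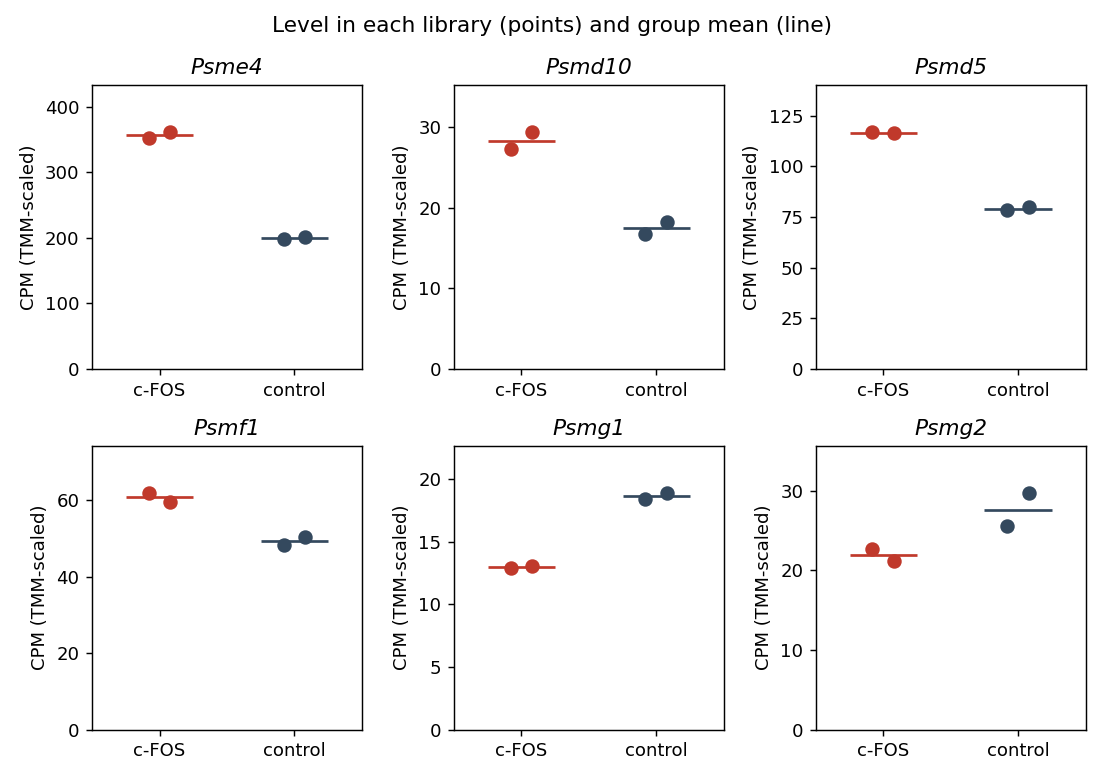
Level of 6 proteasome regulators and assembly factors in each library (points; vertical axis in TMM-scaled CPM from 0) with the group mean (line), c-FOS left and control right. The c-FOS libraries lie above both control libraries for Psme4, Psmd10, Psmd5 and Psmf1 and below both for Psmg1 and Psmg2.

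Of the 7 assembly factors, 2 chaperones of the base were higher, 2 chaperones of the alpha ring were lower and 3 did not pass. Thus 57.1% of them passed, where 67.1% of all tested genes did. Psmg4 was a further lower gene under library totals or upper-quartile factors, and Psmg3 a further higher gene without control replicate 2. Psmd10, Psmd5 and Psmd9 are chaperones of the ATPase base. Psmd10, which encodes the base chaperone gankyrin, also known to bind RB1 and CDK4, was at 27.3 and 29.4 CPM with c-FOS and at 16.7 and 18.3 CPM in the control (0.69 ± 0.08, adjusted p = 2.53e-06). Psmd5 was at 116.9 and 116.4 CPM with c-FOS and at 78.6 and 79.7 CPM in the control (0.56 ± 0.04, adjusted p = 2.26e-08). In both the c-FOS libraries were above the control libraries. Psmd9, the other base chaperone among the 47 genes, had a log2 fold change of 0.02 and did not pass.

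Psmg1 to Psmg4 encode the chaperones of alpha-ring assembly, which work as a pair of Psmg1 with Psmg2 and a pair of Psmg3 with Psmg4. Psmg1 was at 12.9 and 13.0 CPM with c-FOS and at 18.4 and 18.9 CPM in the control (-0.52 ± 0.08, adjusted p = 5.23e-05). Psmg2 was at 22.7 and 21.1 CPM with c-FOS and at 25.6 and 29.7 CPM in the control (-0.34 ± 0.08, adjusted p = 0.00259). Both partners of the first pair were lower, with no overlap of the groups, and Psmg2 was at -0.22 (adjusted p = 0.0108) without control replicate 2. Psmg3 and Psmg4, the partners of the other pair, had log2 fold changes of 0.14 and -0.26 (adjusted p = 0.0948 and 0.0695) and did not pass. The assembly sum was 249.9 and 254.7 CPM with c-FOS and 209.3 and 217.2 CPM in the control, and Psmd5 is its largest term.

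Psmc3ip, which matched by symbol only, was at 6.18 and 5.84 CPM with c-FOS and at 9.99 and 10.7 CPM in the control (-0.78 ± 0.10, adjusted p = 1.43e-05), the lowest log2 fold change of the 46. Its exons share 385 bases with Mlx on the opposite strand, which was slightly higher with c-FOS (0.13 ± 0.05, adjusted p = 0.0396).

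Levels of different genes can be compared only per length, here as mean CPM per kilobase of the deposited gene model. On this scale the 31 structural subunits had a median of 89.8 with c-FOS and 89.9 in the control. They spread from 5.35 with c-FOS and 5.96 in the control for Psma3 up to 161.1 for Psmb1 with c-FOS and 172.0 for Psmc2 in the control. The 8 structural subunits with a near-identical copy had a median of 46.7 with c-FOS and 47.7 in the control, against 102.1 with c-FOS and 105.8 in the control for the 23 without. The part of split reads in this difference was not tested. Those 23 ranged from 43.2 to 161.1 with c-FOS and from 41.4 to 172.0 in the control. The activators and inhibitor had a median of 18.4 with c-FOS and 20.8 in the control, and the assembly factors 19.5 with c-FOS and 18.0 in the control. Psme3 was the most abundant of them per length, at 78.4 with c-FOS and 81.9 in the control. Psme4 stood at 55.8 with c-FOS and 31.3 in the control, inside the range of the structural subunits without a copy with c-FOS and below it in the control. Psmd5 stood at 57.5 with c-FOS and 39.0 in the control, and Psmd10 at 19.5 with c-FOS and 12.1 in the control.

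**Figure D4:**
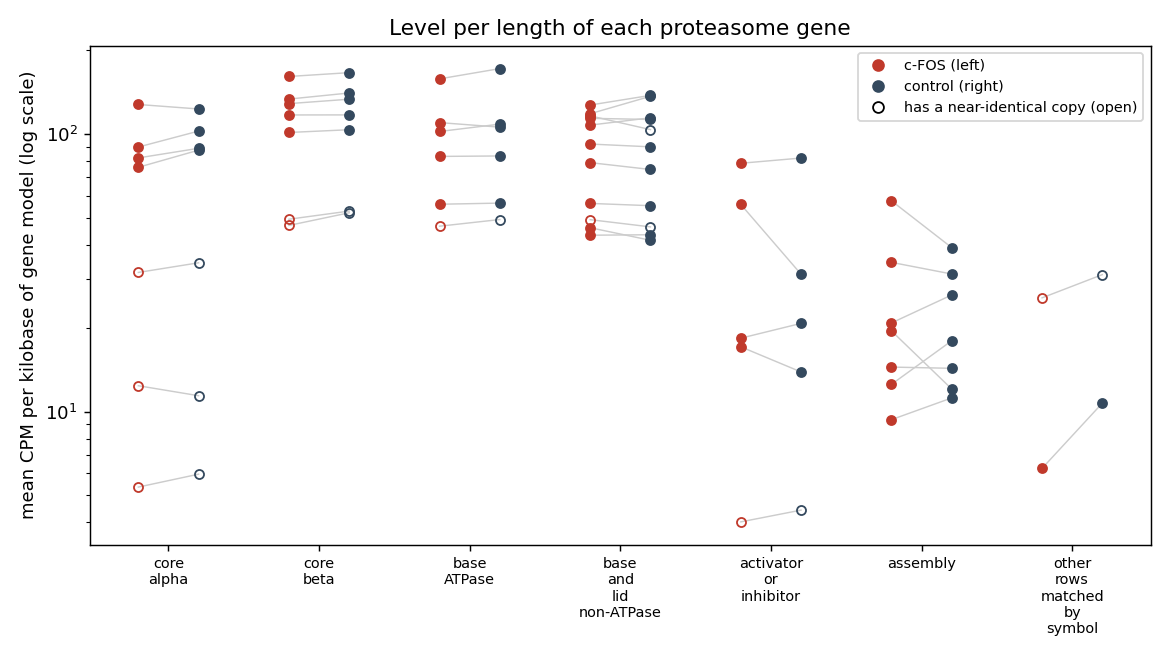
Mean level per kilobase of gene model for each proteasome gene except the tissue-restricted core genes (vertical axis, log scale), by role (horizontal axis), with c-FOS left and control right of each pair; lines join a gene and open circles mark genes with a near-identical copy. Structural subunits without a copy sit between 41.4 and 172.0, Psma3 is the lowest structural subunit, and Psme4 is at 55.8 with c-FOS and at 31.3 in the control.

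Other genes of the pathway passed in both directions. Paaf1 was listed among the further proteasome-bound proteins but had no row. Of the 15 with a row, 6 were higher, 4 lower and 5 did not pass, so 10 of 15 passed where 67.1% of all tested genes did. With library totals 3 were higher and 5 lower, and without c-FOS replicate 2 there were 3 higher and 1 lower. AI314180, which encodes a proteasome adaptor and scaffold, was at 268.3 and 283.1 CPM with c-FOS and at 205.5 and 213.1 CPM in the control (0.40 ± 0.04, adjusted p = 8.48e-07). Akirin2, which encodes a protein that brings proteasomes into the nucleus, was at 121.5 and 121.5 CPM with c-FOS and at 103.3 and 98.8 CPM in the control (0.27 ± 0.04, adjusted p = 5.2e-05). Adrm1 was higher (0.19, adjusted p = 0.0387) but did not pass with DESeq2, library totals or upper-quartile factors. Its call was also lost without a filter on low counts (0.18). The same held without c-FOS replicate 1 (0.16), c-FOS replicate 2 (0.22) or control replicate 2 (0.17). Sem1 did not pass (-0.09, adjusted p = 0.0578) but passed as lower with library totals (-0.22) and upper-quartile factors (-0.15). Pomp, the maturation factor of the core, was lower (-0.14, adjusted p = 0.0182), but did not pass with DESeq2 (-0.13, adjusted p = 0.0865). Nor did Pomp pass without c-FOS replicate 1 (-0.11), c-FOS replicate 2 (-0.16) or control replicate 2 (-0.08).

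Of 11 genes listed around NFE2L1 and NFE2L2, 5 were higher, 3 lower and 3 did not pass, where 67.1% of all tested genes passed. With library totals 3 were higher and 5 lower. Mafk, a small MAF partner of NFE2L1 and NFE2L2, was at 95.7 and 98.5 CPM with c-FOS and at 57.8 and 55.5 CPM in the control (0.78 on the log2 scale). Sel1l, a subunit of the membrane complex that sends NFE2L1 and other proteins out of the endoplasmic reticulum, was at 156.2 and 154.0 CPM with c-FOS and at 109.6 and 112.8 CPM in the control (0.48 ± 0.04, adjusted p = 9.05e-08). Nfe2l1 itself was slightly higher on the TMM scale (0.11, adjusted p = 0.0326) but at -0.03 with library totals. It did not pass with upper-quartile factors (0.05, adjusted p = 0.347) or with a block for replicate number (0.11, adjusted p = 0.0548). Nor did it pass without c-FOS replicate 1 (0.11), c-FOS replicate 2 (0.12) or control replicate 2 (0.05). Nfe2l2 was at 0.01 and did not pass. Ddi2, the protease that activates NFE2L1, was lower (-0.40). Of 6 genes of ubiquitin and its activating enzymes, 3 were higher and 3 lower, where 67.1% of all tested genes passed. With library totals 1 was higher and 3 lower, and with DESeq2 3 were higher and 1 lower. Uba6, an activating enzyme, was at 77.8 and 77.0 CPM with c-FOS and at 40.3 and 49.1 CPM in the control (0.79 ± 0.07, adjusted p = 1.98e-07), and Rps27a, a ubiquitin fusion gene, was at 4.33 and 3.71 CPM with c-FOS and at 5.09 and 5.65 CPM in the control (-0.42, adjusted p = 0.0151). Rps27a lost its call with DESeq2 (-0.41, adjusted p = 0.13) and without c-FOS replicate 2 (-0.31) or control replicate 2 (-0.35). Copies of Rps27a were not searched for. The groups did not overlap in any of these genes with values given per library, where 83.6% of all tested genes did not. These genes were chosen as the largest changes that passed, so their non-overlap adds no support.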

How the data were processed

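The deposited table gives 1 value per gene symbol and library and a gene model length in bases. The values are expected counts, not normalized, as the authors deposited them. They come in steps of 0.5, and 48.0% of the values above 0 are not whole. Per the series design text, reads were aligned with TopHat and analysed with HOMER, and per the submitters' processing notes the build was mm9 and DESeq2 was among the tools. The sources used here give no versions, annotation or strand setting. Columns were assigned to samples by the labels' titles and sample names.

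Of 24909 rows, 7443 were 0 in all 4 libraries, and for 2 symbols with duplicate rows the row with the higher total was kept. Counts were rounded and tested with edgeR 4.0.16 in R 4.3.3, using TMM factors, filterByExpr (minimum count 10) and the two-sided quasi-likelihood test with no covariate, Benjamini-Hochberg adjusted over 12791 genes at 0.05. An exact permutation test of 2 against 2 libraries cannot reach 0.05, so levels and sums have no test. There were 2 residual and 11.3 prior degrees of freedom, with a common biological coefficient of variation of 3.38%. Replicates differed by more than sampling noise (chi-square per degree of freedom 1.93 with c-FOS and 4.82 in the control). Standard errors derive from the quasi-likelihood F statistic. DESeq2 1.42.0 was an alternative. The script was tested on simulated data. Copies were found with BLAST 2.17.0 against GENCODE mouse transcripts, at 95% identity over at least 500 bases, and exon overlaps from the same annotation. The counting interval covers counting error only.

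Values were given in full for the 2 highest and 2 lowest log2 fold changes of each role group, or all members of small groups, and for the 2 largest changes that passed in each further list. Other genes named, among them Psma1, Pomp, Nfe2l1, Nfe2l2 and Ddi2, fell outside that rule and were chosen after their values were seen. The genes, lists and roles were chosen with earlier results of these data known.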

Additional observations from a re-analysis of the deposited data

How the results depend on the processing

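Of the 16 proteasome genes that passed, 10 passed under all 12 alternatives: Psme4, Psmd10, Psmd5, Psmf1, Psmd3, Psma6, Psmg1, Psmg2, Psmc3ip and Psme2b. The other 6 lost the call in at least 1 setting. Psmd2 did not pass with library totals, and Psmd14 did not pass with library totals, upper-quartile factors, DESeq2 or without c-FOS replicate 2. Psmc2 and Psmd7 did not pass without c-FOS replicate 1 or without c-FOS replicate 2, and Psma7 did not without c-FOS replicate 2. Psma1 did not pass with DESeq2 or without c-FOS replicate 1, c-FOS replicate 2 or control replicate 2. Library totals gave 31 lower proteasome genes and a median of -0.19, and upper-quartile factors 22 lower and a median of -0.11. With library totals the sign turned for 10 proteasome genes, of which Psmd4 (-0.12), Psmd13 (-0.11) and Psmd12 (-0.10) then passed as lower. It turned for 8 genes of the other lists, of which Nfe2l2 (-0.13) and Vcp (-0.11) then passed as lower, while Ubqln1 (-0.034) and Nfe2l1 (-0.027) lost their calls. All members moved together, by construction of the scaling. Leaving out 1 library gave 5 to 10 higher genes, the most without control replicate 2, where Psma2, Psma5, Psmd1 and Psmg3 passed as higher, 7 to 14 lower genes and medians from -0.06 to -0.04. With a lone library in a group, its spread is taken from the other group. DESeq2 gave 5 higher and 9 lower, no filter on low counts 6 and 11 of 47 tested, a minimum count of 50 6 and 12, and values not rounded 6 and 10. With the replicate number as a block, 6 were higher, 11 lower and the median was -0.05. The block also ended the calls of Nfe2l1, Ubqln1 and Zfand5. Deviations of same-numbered libraries correlated at -0.084, so the numbers do not show a pairing. With 2 libraries in each group, changes under about 0.1 on the log2 scale mostly did not pass, which does not show that they are absent.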
